A study of Mus musculus with 10 samples.

Results

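The voltage-gated sodium and calcium channel genes were taken as all protein-coding genes of the GRCm39 annotation whose symbol starts with Cacn, or with Scn followed by a digit. This rule, which used symbols and no measured value, gave 40 genes, and all 40 had a row among the 29883 genes of the count table. They comprised 10 pore-forming and 4 beta subunit genes of sodium channels, and 10 pore-forming, 4 alpha2delta, 4 beta and 8 gamma subunit genes of calcium channels. RNA was sequenced from the nucleus accumbens (NAc), a part of the ventral striatum, of 5 C57BL/6J (B6) and 5 DBA/2J (D2) mice, with 1 poly-A library per mouse. All mice were ethanol-naive males, killed at 9 weeks of age, and no treatment was given to either strain. Each strain is inbred and only males were used, so the comparison describes those strains and that sex. The design asks how the strains, which respond differently to ethanol, differ in their basal state.

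Voltage-gated sodium channels open when the membrane is depolarised and carry the rising phase of the action potential. A large pore-forming subunit makes the channel, and small beta subunits with a single membrane span change its gating and its placement in the membrane. Voltage-gated calcium channels turn depolarisation into calcium entry, which drives transmitter release at terminals and gene regulation and firing patterns in the cell body. Their pore-forming subunit is joined in the high-voltage-activated types by an intracellular beta and an extracellular alpha2delta subunit, while the T-type channels open at low voltage without needing either. The gamma subunit genes (Cacng) are named after a subunit of the muscle calcium channel, but most of those expressed in brain are known as TARPs, proteins that carry AMPA receptors to synapses and change their gating.

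Short stretches of coding sequence are printed for some of the high-voltage-activated calcium channel pores. They were read from the annotated transcripts on GRCm39, are printed in the direction of transcription, and come from the helix in the cytoplasmic linker to which the beta subunit binds. Capitals mark its codons for glycine and tyrosine, and for tryptophan and isoleucine.
Cacna1e (chr1:154369058-154369081, minus strand): ttgaacGGCTACcgtgccTGGATA
Cacna1b (chr2:24609963-24609986, minus strand): ctgaatGGGTACttggagTGGATC
Cacna1a (chr8:85262772-85262795, plus strand): ctcaatGGATACatggagTGGATC
Cacna1c (chr6:118711879-118711902, minus strand): ctcaaaGGCTACctggacTGGATC
The in-frame motif searched on the coding strand was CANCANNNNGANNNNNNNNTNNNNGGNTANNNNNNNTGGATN, which begins before the printed stretch. N is any base and stands where the codons of a residue differ, so some other residues fit. It was found in 7 of 21770 protein-coding sequences (0.0322%). All 7 were members of the family, namely Cacna1a, Cacna1b, Cacna1c, Cacna1d, Cacna1e, Cacna1f and Cacna1s. It was not found in the T-type genes Cacna1g, Cacna1h and Cacna1i. The motif was written from residues of the beta-binding helix, so its absence from them is a description and not a test.

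Shared sequence matters for counting, since a read that fits several genes cannot be placed. The longest identical run between the main transcripts of any pair of the 40 genes was 188 bases, between Scn1a and Scn2a. Scn3a and Scn9a shared 184 bases, and these were the only 2 of 780 pairs with a run at least as long as the 150-base reads. The reads were sequenced in pairs, which this comparison with the length of a single read does not take into account. The levels of these 4 genes may be slightly less certain than those of the rest, which was not tested.

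Between 96977262 and 111468080 counts were assigned to genes per B6 mouse and between 104443243 and 116776714 per D2 mouse (two-sided exact permutation test, p = 0.063). Levels are given as RPKM, counts divided by exon length and by library size after TMM scaling, which corrects for library composition. Of the 40 genes, 31 had a mean of at least 1000 counts and 9 a mean under 500, so the members differed widely in counting precision. The striatal markers Drd1 and Ppp1r1b were high in both strains, at 47.4 and 370.8 RPKM in B6 and 45.4 and 315.1 RPKM in D2. B6 replicates 3 and 5 stood apart from the other B6 mice in the summed level of 6 cortex projection neuron markers, Slc17a7 and Neurod6 among them. It was 889 and 904 CPM (the same TMM-scaled counts per library size, without division by length) in these mice, between 71.6 and 153 CPM in the other 3 B6 mice and between 205 and 558 CPM in the D2 mice. The same pair were the most alike of the 20 pairs of libraries within a strain, although they still differed by more than sampling noise. Results are therefore given with and without these 2 mice. Without them, every D2 mouse lay above every remaining B6 mouse in the summed cortex markers. Strain and cortex marker level cannot be told apart in that fit.

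The sodium and calcium channel pores with the highest levels were the same in both strains. Among sodium channel pores, Scn2a, a channel of axons and unmyelinated fibres, made up 36.9% ± 1.04 (SD, n = 5) of the summed RPKM in B6 mice and 37.2% ± 1.58 in D2 mice. Scn8a, the channel of the axon initial segment and nodes, followed with 30.4% ± 2.48 and 27.7% ± 0.355, and Scn1a with 18.5% ± 0.643 and 20.6% ± 2.29. Scn3a, best known from the embryonic brain, held 10.01% ± 1.27 in B6 and 10.2% ± 0.554 in D2. The nociceptor gene Scn9a reached 1.48 RPKM in B6 and 1.56 RPKM in D2. Scn10a and Scn11a, genes of sensory neurons, stayed between 25 and 77 counts per library, and the skeletal muscle gene Scn4a between 0 and 6.

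Among calcium channel pores the R-type gene Cacna1e was highest, at 26.4 ± 1.25 RPKM in B6 and 26.0 ± 1.55 RPKM in D2 (SD, n = 5). The N-type gene Cacna1b followed with 19.8 and 20.6 RPKM, then the T-type genes Cacna1h with 16.1 and 17.3 RPKM and Cacna1i with 15.6 and 13.3 RPKM. The P/Q-type gene Cacna1a, the L-type genes Cacna1c and Cacna1d and the T-type gene Cacna1g lay between 6.03 and 8.997 RPKM as strain means. Cacna1s of skeletal muscle and Cacna1f of the retina were below 0.16 RPKM. With the length of the longest transcript in place of all annotated exons, 15 of the 40 genes changed rank within their role by their mean over all 10 mice. The first place moved from Cacna2d2 to Cacna2d3 among alpha2delta genes and from Cacnb3 to Cacnb1 among calcium channel beta genes. The leading genes of these roles were close, and within B6 alone Cacna2d3 (23.5 RPKM) and Cacnb4 (31.998 RPKM) were already first by exon length.

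**Figure D1:**
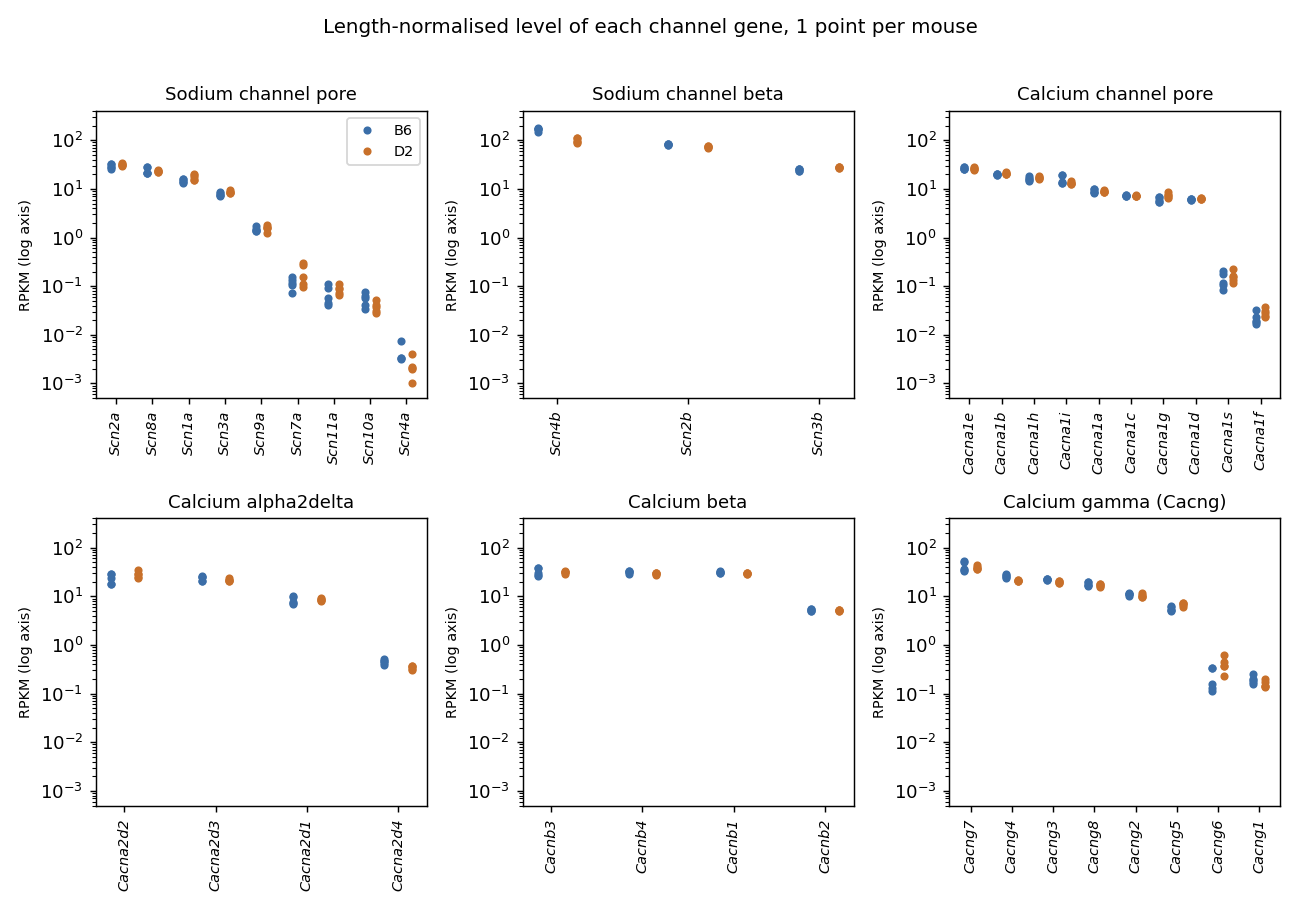
Length-normalised level (RPKM, log axis) of 38 channel genes by role, with 1 point per mouse (B6 blue, D2 orange, 5 mice each). Scn4b was the highest of all, and 9 genes with a mean under 500 counts lie below 1 RPKM. Scn4a was at 0 in B6 replicate 4, which a log axis cannot show.

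The strain comparison used the quasi-likelihood test of edgeR on the whole table with Benjamini-Hochberg adjustment, and fold changes are D2 against B6. At an adjusted p under 0.05, 9 of the 40 channel genes (22.5%) passed, while 18.3% of all 29883 genes did. Of the 9 channel genes, 4 were higher in D2 (as were 8.5% of all genes) and 5 were lower (as were 9.83%). Among all genes that passed, 53.6% were lower in D2, but 45.04% were with scaling by total counts, where the channel genes still split into 4 higher and 5 lower. Of the 31 members with a mean of at least 1000 counts 8 passed (25.8%), against 22.3% of the 10645 genes at that level. In this fit, the share of channel genes that differed was thus near that of genes at large. The median log2 fold change of the members was -0.0025, beside 0.0036 for all genes. In 6 members (15.0%) the levels of the strains did not overlap, against 16.0% of all genes. Only Scn3b was without overlap and higher in D2 (7.39% of all genes), and the other 5 were lower (8.63% of all genes). By role, 3 of 4 sodium channel beta genes, 3 of 8 gamma genes, 1 of 10 sodium channel pores, 1 of 10 calcium channel pores, 1 of 4 alpha2delta genes and 0 of 4 calcium channel beta genes passed.

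With B6 replicates 3 and 5 left out, 15 of the 40 genes (37.5%) passed, against 19.2% of all genes. There were 10 higher in D2 (9.68% of all genes) and 5 lower (9.54% of all genes). They included 8 of the 9 genes named above, all but Cacna2d4. With the level of the cortex markers as a covariate over all 10 mice, 17 passed (42.5%, against 26.0% of all genes), and all 9 were among them. There were 9 higher and 8 lower in D2, against 13% of all genes in each direction. Genes gained with the covariate included Cacna1h, Cacna1i, Cacna2d2, Cacnb4, Cacng6, Cacng8 and Scn11a. Both of these fits were chosen after the data were seen.

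**Figure D2:**
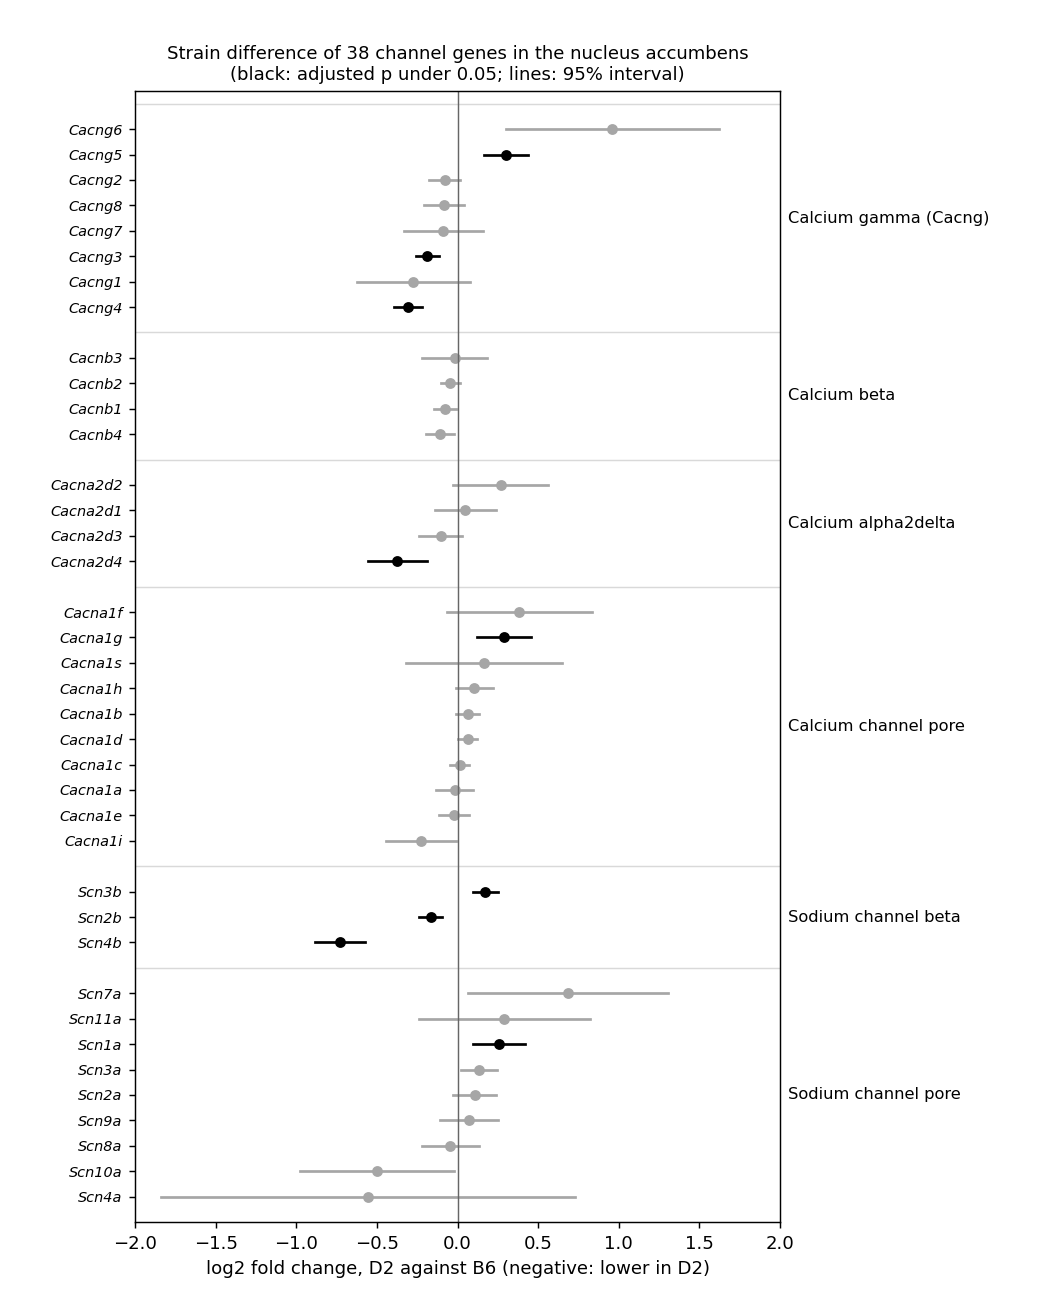
Log2 fold change (D2 against B6) of 38 channel genes, grouped by role, with lines of 1.96 standard errors on each side. Black marks the 9 genes that passed an adjusted p of 0.05, from -0.73 for Scn4b to 0.30 for Cacng5, and the widest lines belong to genes with few counts such as Scn4a.

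The largest change among the genes that passed was in Scn4b, the sodium channel beta subunit whose tail is known to take part in resurgent sodium current. Its level was 145.1, 169.5, 169.0, 177.3 and 170.0 RPKM in the B6 mice and 98.4, 87.5, 111.2, 90.6 and 113.2 RPKM in the D2 mice. Every D2 mouse was below every B6 mouse. D2 mice had 0.603 of the B6 level, a log2 fold change of -0.73 (standard error 0.078, edgeR adjusted p = 2.1e-05). It was -0.71 without B6 replicates 3 and 5, and lay between -0.78 and -0.69 when single mice were left out. Scn4b was also the most abundant of the 40 genes and made up 48.8% ± 2.85 of the summed RPKM of the sodium channel beta genes in B6 and 36.7% ± 1.99 in D2 (SD, n = 5).

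Scn4b is known to be rich in striatal projection neurons, and markers of these neurons moved in the same direction. Of 10 such markers 7 passed as lower in D2 and none as higher, beside 9.83% and 8.5% of all genes. The median log2 fold change of the 10 was -0.32. Their summed level lay between 5906 and 7366 CPM in B6 and between 4858 and 5840 CPM in D2, and none was at 0. Drd2 fell by 0.46 on the log2 scale and Adora2a by 0.39, genes of the indirect pathway neurons, while Drd1 of the direct pathway neurons had a log2 fold change of -0.06 (adjusted p = 0.67). In these bulk samples, fewer cells of a type and less RNA per cell cannot be told apart, and the part of this in the Scn4b result was not tested.

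Scn2b lies 8.23 kb from Scn4b on chromosome 9, and its product is, like that of Scn4b, attached to the pore by a disulfide bond. It was lower in D2 too, but by much less. The B6 mice had 79.4, 83.4, 81.8, 78.7 and 82.5 RPKM and the D2 mice 74.7, 68.1, 72.5, 71.3 and 75.0 RPKM, without overlap. The log2 fold change was -0.17 (standard error 0.036, edgeR adjusted p = 0.0055; -0.16 without B6 replicates 3 and 5) and stayed between -0.18 and -0.15 when single mice were left out. Of the 33 other tested genes within 500 kb of Scn4b, 5 passed (15.2%, beside 18.3% of all genes), 2 higher and 3 lower in D2, Scn2b included.

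Scn3b changed in the other direction. Its product, a beta subunit not bound covalently to the pore, was represented by 26.0, 25.02, 23.5, 25.8 and 23.4 RPKM in B6 and by 27.2, 28.5, 26.9, 28.7 and 28.1 RPKM in D2. No D2 mouse was as low as the highest B6 mouse, with a log2 fold change of 0.17 (standard error 0.039, edgeR adjusted p = 0.0078) and 0.12 without B6 replicates 3 and 5. While Scn4b fell, Scn3b took 10.3% ± 0.928 of the beta subunit RPKM in D2 and 7.31% ± 0.980 in B6 (SD, n = 5). That sum includes Scn4b, so the share rose by more than the level of Scn3b, which in D2 was 1.13-fold that in B6.

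Of the sodium channel pores only Scn1a passed the test, and narrowly. Scn1a is known as a main channel of fast-spiking interneurons. Its level was 14.5, 13.8, 15.8, 13.04 and 15.6 RPKM in B6 and 20.2, 15.2, 19.0, 15.3 and 17.4 RPKM in D2. In 3 of the 5 D2 mice it was above all B6 mice, while D2 replicates 2 and 4 lay within the B6 range. The log2 fold change was 0.26 (standard error 0.082, edgeR adjusted p = 0.046). It stayed between 0.20 and 0.30 when single mice were left out but passed in only 3 of those 10 fits, those without B6 replicate 3, D2 replicate 2 or D2 replicate 4. It was 0.34 (adjusted p = 0.016) without B6 replicates 3 and 5. A filter on low counts moved the adjusted p to 0.053.

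Of 6 interneuron markers, 0 passed in the same fit, beside 18.3% of all genes. Their summed levels lay between 249 and 278 CPM in B6 and between 254 and 293 CPM in D2. Sst made up most of that sum. The median log2 fold change of the list was 0.22, and 5 of the 6 values were above 0. Pvalb, the marker of fast-spiking interneurons, had 0.45 (edgeR adjusted p = 0.074), and the part of these cells in the Scn1a result was not tested. Scn1a exons overlap the antisense genes Gm13630 (101 bases) and Gm13629 (416 bases) on the opposite strand. Gm13630 fell by 0.87 on the log2 scale in D2 and Gm13629 rose by 0.64 (edgeR adjusted p = 1.9e-04 and 0.0012). Whether the counting used the strand is not given in the sources used here, and their part in the Scn1a value was not tested.

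The other abundant sodium channel pores did not pass. Scn2a had 29.2 ± 3.22 RPKM in B6 and 31.4 ± 1.53 RPKM in D2 (SD, n = 5), a log2 fold change of 0.11 with an interval from -0.03 to 0.24. For Scn3a it was 0.13 with an interval from 0.02 to 0.24 (edgeR adjusted p = 0.14), and for Scn8a -0.04 with an interval from -0.22 to 0.13. These intervals span 1.96 standard errors on each side and are not adjusted for the number of genes. Scn8a was 28.5 and 28.3 RPKM in B6 replicates 3 and 5, between 20.8 and 21.65 RPKM in the other B6 mice and between 22.5 and 24.9 RPKM in D2. Without those 2 mice its log2 fold change was 0.13 (adjusted p = 0.030), and that of Scn2a was 0.22 (adjusted p = 0.0085). With the cortex marker covariate neither passed, at -0.09 for Scn8a (adjusted p = 0.14) and 0.07 for Scn2a (adjusted p = 0.17).

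Lower sodium channel pores also did not pass. Their log2 fold changes were 0.07 for Scn9a, 0.69 for Scn7a, 0.29 for Scn11a and -0.50 for Scn10a, with adjusted p between 0.17 and 0.68. Scn7a had a standard error of 0.317, with 55 to 114 counts in the B6 mice and 98, 226, 81, 250 and 121 counts in the D2 mice.

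**Figure D3:**
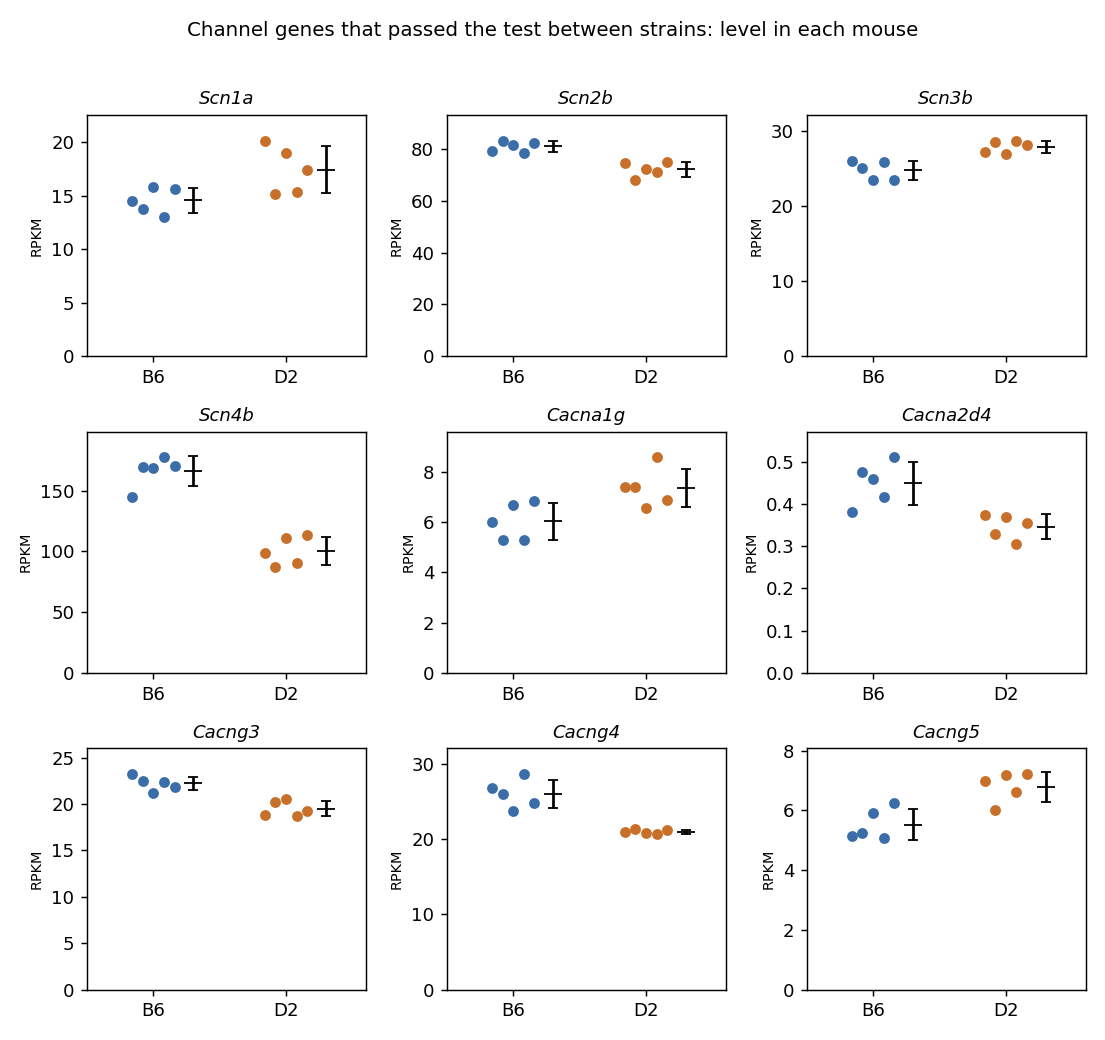
Level (RPKM, axis from 0) of the 9 channel genes that passed, with 1 point per mouse for B6 (blue) and D2 (orange), and the mean with its SD (n = 5) beside the points. The strains do not overlap for Scn2b, Scn3b, Scn4b, Cacna2d4, Cacng3 and Cacng4, and they overlap for Scn1a, Cacna1g and Cacng5.

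Among calcium channel pores only Cacna1g passed. It encodes a T-type channel, which opens near the resting potential and is known for burst firing. The B6 mice had 6.02, 5.28, 6.69, 5.31 and 6.86 RPKM and the D2 mice 7.40, 7.40, 6.57, 8.58 and 6.87 RPKM. D2 replicate 3 lay within the B6 range and the other 4 above it. The log2 fold change was 0.29 (standard error 0.087, edgeR adjusted p = 0.036), between 0.23 and 0.33 when single mice were left out, and it passed in 4 of those 10 fits, those without B6 replicate 3 or 5 or D2 replicate 3 or 5. Without B6 replicates 3 and 5, the B6 mice with the highest levels, it was 0.41 (adjusted p = 0.0023).

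The related T-type gene Cacna1i had a log2 fold change of -0.23 and did not pass (adjusted p = 0.20). Its B6 values were 12.97, 13.1, 18.9, 13.8 and 19.2 RPKM, again with replicates 3 and 5 apart, and its D2 values lay between 12.5 and 14.5 RPKM. Without those 2 mice the log2 fold change was 0.0008, whereas with the cortex marker level as a covariate it was -0.28 and passed (adjusted p = 1.9e-04). For Cacna1h, the third T-type gene, it was 0.10 with an interval from -0.01 to 0.22.

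None of the high-voltage-activated pores passed. Cacna1c, the main L-type gene, was at 7.20 ± 0.206 RPKM in B6 and 7.26 ± 0.0490 RPKM in D2 (SD, n = 5), a log2 fold change of 0.01 with an interval from -0.04 to 0.07. Cacna1d, the L-type gene that opens at lower voltage, had 0.06 with an interval from 0.0045 to 0.12 (edgeR adjusted p = 0.18). For the presynaptic channels it was -0.02 (interval -0.13 to 0.10) for Cacna1a and 0.06 (interval -0.01 to 0.14) for Cacna1b. Cacna1e, with a mean of 72507 counts per library, had -0.02 with an interval from -0.12 to 0.07. All 5 intervals thus lay within -0.13 and 0.14 on the log2 scale. Cacna1f (0.38, adjusted p = 0.30) and Cacna1s (0.16, adjusted p = 0.74) had wider intervals.

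The alpha2delta subunits carry the channel to the surface, and the products of Cacna2d1 and Cacna2d2 are known as the binding sites of gabapentin. Cacna2d4, a gene of photoreceptors, was the only one that passed, and at a low level. It had 408, 476, 414, 402 and 512 counts in the B6 mice and 420, 347, 404, 334 and 360 in the D2 mice, which was 0.381 to 0.510 and 0.304 to 0.373 RPKM. On the RPKM scale the strains did not overlap, and the log2 fold change was -0.37 (standard error 0.093, edgeR adjusted p = 0.013). It passed in all 10 fits that left out a single mouse, but without B6 replicates 3 and 5 it was -0.30 and did not pass (adjusted p = 0.064). With the cortex marker covariate it was -0.39 and passed (adjusted p = 0.0049). Lrtm2, on the opposite strand, shares 49 bases with Cacna2d4 exons and had a mean of 9107 counts in B6 and 9415 in D2. The part of Lrtm2 reads in the Cacna2d4 value was not tested.

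Cacna2d2 had 29.1, 28.4, 17.7, 24.03 and 17.5 RPKM in B6, lowest in replicates 3 and 5, and 34.4, 23.7, 25.1, 28.8 and 28.5 RPKM in D2. Its log2 fold change of 0.27 did not pass (adjusted p = 0.27), and was 0.05 without those 2 mice, yet 0.40 with the cortex marker level as a covariate (adjusted p = 2.5e-05). Cacna2d1 and Cacna2d3 also did not pass, with log2 fold changes of 0.05 and -0.10. Without the same 2 mice both did, at 0.23 (adjusted p = 0.0092) and -0.21 (adjusted p = 0.0053), but with the covariate neither did, at -0.0034 (adjusted p = 0.97) and -0.06 (adjusted p = 0.34).

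None of the 4 calcium channel beta genes passed edgeR's test (unadjusted p under 0.05 in 2 of them, Cacnb1 and Cacnb4, and 0 by DESeq2 after adjustment). These genes encode the intracellular subunits that bind the helix printed above. Their log2 fold changes were -0.08 for Cacnb1, -0.04 for Cacnb2, -0.02 for Cacnb3 and -0.11 for Cacnb4. Cacnb4 had 31.998 ± 1.70 RPKM in B6 and 29.7 ± 1.18 RPKM in D2 (SD, n = 5), with an interval from -0.19 to -0.02 (adjusted p = 0.11). Cacnb4 did pass with the cortex marker covariate (-0.115, edgeR adjusted p = 0.049) and without B6 replicate 2 (-0.14, adjusted p = 0.031). Cacnb3 had 37.6 and 38.5 RPKM in B6 replicates 3 and 5, between 26.5 and 29.7 RPKM in the other B6 mice and between 28.4 and 33.8 RPKM in D2. Its log2 fold change without those 2 mice was 0.18 (adjusted p = 0.038), in the other direction, while with the cortex marker covariate it was -0.07 and did not pass (adjusted p = 0.083).

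Of the gamma genes, Cacng4 showed the firmest change. It is a TARP gene known for its high expression in precursors of oligodendrocytes as well as in neurons. Its level was 26.8, 26.1, 23.8, 28.6 and 24.8 RPKM in B6 and 21.0, 21.3, 20.8, 20.7 and 21.2 RPKM in D2. The D2 values were closely grouped and all below the lowest B6 value. The log2 fold change was -0.31 (standard error 0.045, edgeR adjusted p = 2.9e-04), between -0.34 and -0.27 when single mice were left out and -0.37 without B6 replicates 3 and 5.

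Of 4 markers of oligodendrocyte precursors 1 passed as lower in D2 (Olig1) and none as higher, beside 9.83% and 8.5% of all genes. Their summed levels lay between 199 and 233 CPM in B6 and between 185 and 218 CPM in D2. Of 6 markers of mature oligodendrocytes 4 passed as lower in D2, beside 9.83% of all genes. The summed levels of the 6 lay between 4293 and 6202 CPM in B6 and between 3242 and 4734 CPM in D2. The highest B6 mice were replicates 3 and 5, with 6202 and 6171 CPM. The other B6 mice lay between 4293 and 5148.5 CPM. In B6, Cacng4 was lowest in replicates 3 and 5, at 23.8 and 24.8 RPKM. No marker of either list was at 0 in all libraries, and the part of these cells in the Cacng4 result was not tested. An antisense gene, Gm11650, overlaps 221 bases of Cacng4 exons and also fell, by 0.54 on the log2 scale (edgeR adjusted p = 0.0062).

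Cacng3, a TARP gene of forebrain neurons, was lower in D2 as well. The B6 mice had 23.2, 22.5, 21.2, 22.3 and 21.8 RPKM and the D2 mice 18.8, 20.2, 20.5, 18.7 and 19.3 RPKM, without overlap. The log2 fold change was -0.19 (standard error 0.037, edgeR adjusted p = 0.0030), between -0.21 and -0.17 when single mice were left out and -0.22 without B6 replicates 3 and 5.

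Cacng5 rose in D2. It encodes a type II TARP and is a neighbour of Cacng4 on chromosome 11, 79.8 kb away, so that the neighbours changed in opposite directions. Its level was 5.13, 5.255, 5.90, 5.07 and 6.24 RPKM in B6 and 6.98, 6.01, 7.18, 6.61 and 7.21 RPKM in D2. In 4 of the 5 D2 mice it was above every B6 mouse. The log2 fold change was 0.30 (standard error 0.069, edgeR adjusted p = 0.0079), between 0.27 and 0.34 when single mice were left out and 0.40 without B6 replicates 3 and 5.

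The highest gamma gene was Cacng7, the other type II TARP gene, with 41.3 ± 9.20 RPKM in B6 and 38.8 ± 3.43 RPKM in D2 (SD, n = 5). It did not pass (log2 fold change -0.09, adjusted p = 0.71), and B6 replicates 3 and 5 held 52.2 and 50.4 RPKM against 33.6 to 36.2 RPKM in the other B6 mice. Cacng2, which encodes stargazin, and Cacng8, a TARP of hippocampus and forebrain, each had a log2 fold change of -0.08 (adjusted p = 0.32 and 0.44). The muscle gene Cacng1 stayed between 35 and 56 counts per library, with a log2 fold change of -0.27 (adjusted p = 0.36).

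Cacng6, like Cacng1 a gamma gene of muscle, had the largest fold change of the family but did not pass (log2 fold change 0.96, standard error 0.337, edgeR adjusted p = 0.069). It had 53, 69, 132, 54 and 144 counts in B6 and 113, 209, 303, 178 and 166 in D2. As RPKM, 4 of the 5 D2 mice were above all B6 mice, and the highest B6 mice were again replicates 3 and 5. Without those mice the log2 fold change was 1.63 (adjusted p = 0.0014), and with the cortex marker covariate it was 0.85 (adjusted p = 0.0028). The antisense gene 3300002P13Rik covers 870 bases of the Cacng6 exons (20.9%) and had a mean of 8.8 counts in B6 and 91.4 in D2 (log2 fold change 3.23, edgeR adjusted p = 1.3e-04). Reads of this pair cannot be told apart if the strand was not used in counting.

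**Figure D4:**
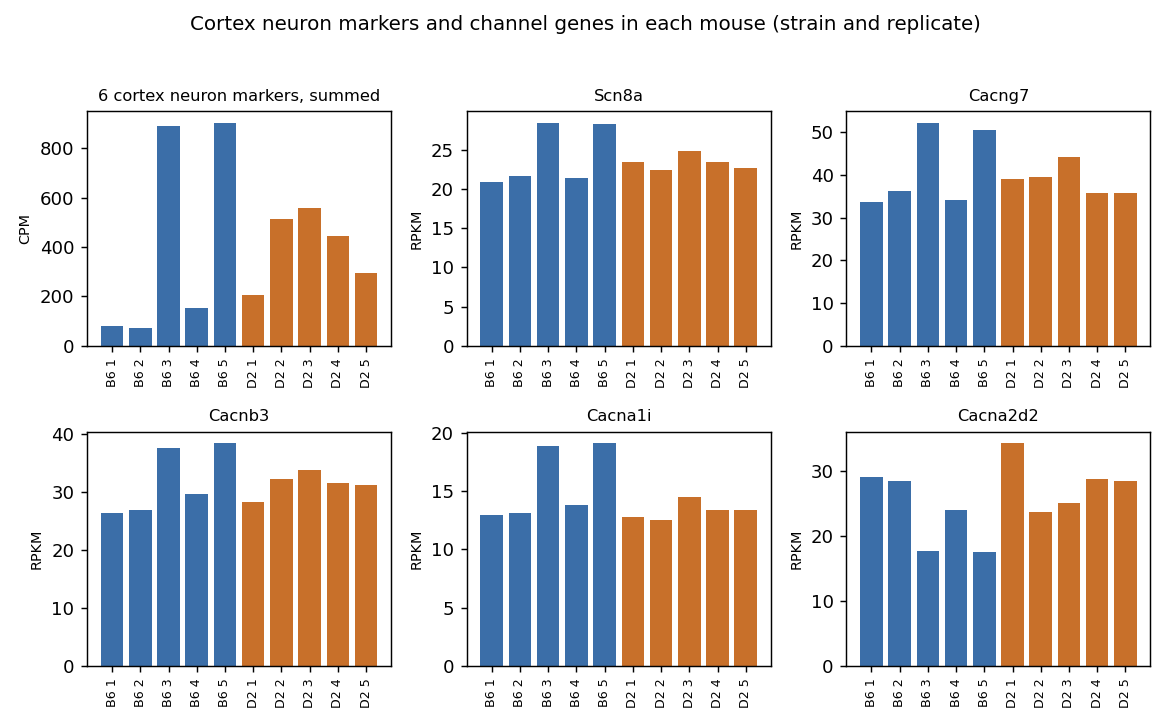
Summed level of 6 cortex projection neuron markers (CPM) and level of 5 channel genes (RPKM) in each mouse, as bars from 0 (B6 blue, D2 orange, with the replicate number). B6 replicates 3 and 5 stand at 889 and 904 CPM for the markers. They are the highest B6 mice for Scn8a, Cacng7, Cacnb3 and Cacna1i, and the lowest for Cacna2d2. These 5 genes were chosen after their values in each mouse were seen and do not stand for all members.

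Genes whose products work with these channels were compared in the same fit. Of 12 partners of sodium channels 2 fell in D2 and none rose. These were Fgf11, which belongs to the fibroblast growth factor homologues that bind the channel tail (log2 fold change -0.23, edgeR adjusted p = 0.0049), and Nfasc, an adhesion protein of the axon initial segment (-0.23, adjusted p = 0.035). Of 21 partners of calcium channels and of the related sodium leak channel 1 rose and 1 fell. Cachd1, an alpha2delta-like protein, rose by 0.23 (adjusted p = 3.1e-04), and Stac3, an adaptor of the muscle L-type channel, fell by 0.48 at a low level of 1.43 RPKM in B6 and 1.02 RPKM in D2. Of 8 AMPA receptor auxiliary genes outside the Cacng family, Gsg1l fell by 0.25 (adjusted p = 0.0041) and Dlg4, the scaffold PSD-95, by 0.17 (adjusted p = 0.0059), and the other 6 did not pass. In all, 6 of these 41 partner genes passed (14.6%), beside 18.3% of all genes.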

How the data were processed

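The authors trimmed reads with fastp 0.22.0, aligned both strains with STAR 2.7.10b to Ensembl release 108 of GRCm39, which is the B6 genome, sorted with SAMtools 1.6 and counted reads per gene with featureCounts. D2 reads that carry D2 alleles may therefore be lost more easily than B6 reads. The deposited values are raw counts, from which genes with a median of 0 had been removed. The authors also deposited the mean (entered as signal) and median of each row, not used here. The library kit was stranded, while the strand setting of the counting is not given in the sources used here.

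Of the 29883 genes, 29519 had an entry in the GENCODE annotation of GRCm39 used here for symbols, exon lengths and overlaps, which is later than the one used for counting. Counts were fitted with edgeR 4.0.16 (TMM scaling, two-sided quasi-likelihood test, no covariates) under R 4.3.3, adjusted by Benjamini-Hochberg over all genes, with a threshold of 0.05. Standard errors were derived from each fold change and its F statistic. Overlap was judged on TMM-scaled counts, and depth with an exact permutation test over 252 assignments. RPKM used the union of annotated exons. Self-tests ran on simulated data. Named genes were the members, with values in every mouse for those that passed, the most abundant of each role, and partner genes that passed. Some members enter every fit and count but are not reported by name here. Per-mouse values of other members were added after their values were seen. Members and lists were chosen with earlier results of these data known. Alternatives were DESeq2 1.42.0, other scalings and filters, a stricter threshold, the replicate block and each mouse left out. Each mouse was 1 library. Python 3.11.15, pandas 2.3.3, scipy 1.17.1 and matplotlib 3.10.9 were used for the tables and figures.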

Additional observations from a re-analysis of the deposited data

Results flagged for a closer look

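Of the 80 sets of 5 mice (40 genes in each strain), 2 held a mouse that stood far from the other 4, where chance gives about 1 in 20. The Scn4b level of B6 replicate 1, 145.1 RPKM, lay below the other B6 mice, which ranged from 169.0 to 177.3 RPKM, and still above all D2 mice. The Cacna1a level of D2 replicate 3, 9.468 RPKM, lay above the other D2 mice, which ranged from 8.603 to 8.845 RPKM, and within the B6 range.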

How the results depend on the processing

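Of the 9 channel genes that passed, Scn4b, Scn2b, Scn3b, Cacng3, Cacng4, Cacng5 and Cacna2d4 passed in every fit that left out a single mouse, while Scn1a and Cacna1g did not. The number of channel genes ranged from 7 to 10 in those fits and the number of all genes from 4636 to 5676, beside 9 and 5478 with all mice. At an adjusted p of 0.01, 3415 genes passed in all and 6 channel genes. DESeq2 called 6175 genes in all and the same 9 channel genes, and with total counts 9 channel genes passed. A filter on low counts lost Scn1a. With the replicate number as a block, 4731 genes and 9 channel genes passed, with Cacng6 gained and Cacna1g lost (adjusted p = 0.088). Same-numbered deviations of the strains correlated between -0.408 and 0.369, which cannot decide whether the numbers pair the mice.

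Leaving out B6 replicates 3 and 5 gave 15 channel genes and the cortex marker covariate 17. The following log2 fold changes, none called with all mice, changed sign, and the cause was not tested. With total counts, Cacnb3 was at 0.0172, Cacna1a at 0.0137 and Cacna1e at 0.0098. With the cortex marker covariate, Cacna2d1 was at -0.0034. Without the 2 mice, Cacnb3 was at 0.1816, Cacng7 at 0.1639, Cacng8 at 0.0109, Cacna1a at 0.0812, Cacna1c at -0.0062, Cacna1e at 0.0242, Cacna1i at 0.0008, Scn11a at -0.0325, Scn4a at 0.0493 and Scn8a at 0.1343. With single mice left out, the ranges were -0.0127 to 0.1208 for Cacna2d1, -0.077 to 0.0523 for Cacnb3, -0.1546 to 0.0039 for Cacng7, -0.0532 to 0.0148 for Cacna1a, -0.0046 to 0.0273 for Cacna1c, -0.0486 to 0.0066 for Cacna1e, -0.0061 to 0.3501 for Cacna1s and -0.0929 to 0.0162 for Scn8a.

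Of the members, 9 had a mean under 500 counts, and whether depth or the spread between mice widened their intervals was not tested. RPKM depends on the length used, which moved levels up to 2.73-fold without touching the strain comparison. Alignment of D2 reads to the B6 genome was not varied.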

Other observations

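Of the 40 channel genes, 20 share exon bases with another annotated gene on the opposite strand, and for 15 of them the partner had a row in the table. A730060N03Rik, a non-coding gene opposite to Cacng2, had a mean of 317.4 counts in B6 and 740.2 in D2, a log2 fold change of 1.10 (edgeR adjusted p = 3.8e-07), while Cacng2 had -0.08 (adjusted p = 0.32). Gm44257, opposite to Cacng8, fell by 0.45 on the log2 scale (adjusted p = 0.0084), while Cacng8 had -0.08. Chdh, a coding gene that covers 1477 bases of Cacna1d exons, had a log2 fold change of 0.17 and did not pass (adjusted p = 0.54).

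Many of the genes lie close to another member. Scn3a, Scn2a, Scn1a, Scn9a and Scn7a lie in this order on chromosome 2, with 503 kb between Scn2a and Scn1a. Their log2 fold changes were 0.13, 0.11, 0.26, 0.07 and 0.69, of which that of Scn1a passed. Cacng7, Cacng8 and Cacng6 adjoin on chromosome 7, with -0.09, -0.08 and 0.96, of which none passed edgeR's test over all genes (1 had an unadjusted p under 0.05, and 0 passed by DESeq2). Within 500 kb of Scn3b 4 of 14 other tested genes passed (28.6%), beside 18.3% of all genes. Within 500 kb of Cacng4 it was 2 of 11 (18.2%), Cacng5 included. Around the members that passed, this share ran from 7.14% for Cacna1g to 33.3% for Cacna2d4.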
